A study of Mus musculus with 9 samples.

Results

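Ribosome footprints on 10 immediate-early genes were followed in macrophages that expressed GFP alone, the RNA-binding protein tristetraprolin (TTP, the product of Zfp36) as a GFP fusion, or a TTP mutant. The 10 genes are Egr1, Egr2, Egr3, Klf2, Klf6, Myc, Ier2, Ier3, Ier5 and Gadd45b. They were selected by gene symbol from a table of 16921 genes, and each symbol matched 1 gene. All 10 were above the filter on low values, a mean level of at least 10 over all libraries, which 10099 genes of the table met.

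The cells were bone marrow-derived macrophages from TTP-deficient mice, made permanent with the oncogenes hcmyc and hRasG12V, so that every library shares the TTP deficiency and both human oncogenes. CD11b and F4/80 positive cells then received a doxycycline-inducible vector for GFP, GFP-TTP or GFP-TTP-AA, in which the serines of TTP that the kinase MK2 phosphorylates are replaced by alanine (S52A and S178A). All cells were given doxycycline (1 µg/ml) for 6 h and lipopolysaccharide (LPS, 1 µg/ml) for 1 h, and RiboSeq, the sequencing of the mRNA fragments that ribosomes protect from nuclease, was performed on 3 libraries per condition. Each condition is its own transduced line, sorted for GFP, so that a difference between conditions and a difference between lines cannot be told apart, and the p-values measure the spread between the replicates of single lines, which the submitters call biological. The vectors carry TTP under an inducible promoter and not under its own LPS-responsive one. The TTP-deficient mice carried the Zfp36tm1Pjb allele, were bred from heterozygotes with C57BL/6 named for the wild type, and were 6 weeks old in the description of marrow collection.

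The deposited values are fitted by a model and not observed. Each is the mean that the model expects for the condition and replicate number, multiplied by a size factor for depth, and the log2 values left a residual SD of 2.83e-15 after these terms. Size factors ranged from 0.419 to 2.14, and the libraries held a sum of 2570292 to 12804501 fitted footprints. A level is the fitted value divided by the size factor, averaged as a geometric mean over the 3 libraries of a condition. The spread between replicates enters through the standard error (SE) of each comparison, and values of single libraries describe the fit. As a check of the labels, the level of Zfp36 was 460 in GFP, 924 with GFP-TTP and 1522 with the mutant (GFP-TTP minus GFP 1.01 ± 0.25 (SE) on the log2 scale, GFP-TTP-AA minus GFP-TTP 0.72 ± 0.25, Wald test, adjusted p = 0.00534 and 0.0426). Adjusted over the 3 comparisons together, the difference between both TTP lines no longer passed (Wald test, adjusted p = 0.0700). The SE of Zfp36 equalled the largest of any gene to 3 digits (0.250). The model thus drew the Zfp36 levels of the conditions strongly together, as described for Egr3 below, and the differences before shrinkage are larger than those printed. Zfp36 was also counted in the GFP line, which has no TTP transgene, and footprints on the transgene and on the disrupted gene cannot be told apart in values per gene. The part of the Zfp36 difference in the differences between the TTP lines was not tested. Of 12 macrophage markers 11 were listed under the symbols searched and above the filter, among them Itgam, which encodes CD11b, at a level of 2974 in GFP, 3179 with GFP-TTP and 3161 with the mutant. Adgre1, which encodes F4/80 and is listed under its older symbol Emr1, was at 3672, 2284 and 5293 in the same order. The summed level of the macrophage markers was between 92724 and 107277 in GFP, 75129 and 86433 in GFP-TTP, and 101209 and 119287 in GFP-TTP-AA. Lyz2 made up most of each sum, at 64178, 45882 and 70747 in the same order, so that the sums mostly follow this gene. Of the 11 markers, 2 were called lower in GFP-TTP than in GFP (Lyz2 and Fcgr1), where 1.38% of all genes tested were lower. In GFP-TTP-AA minus GFP-TTP 5 were called higher and 1 lower, where 5.4% of all genes were higher and 4.88% lower. In GFP-TTP-AA minus GFP the Wald test called 0 of them, with 2 at an unadjusted p under 0.05, and their part in the differences of the 10 genes was not tested. Summed markers of fibroblasts, T cells, B cells and dendritic cells did not exceed 4.31 in any library. Of 5 markers of granulocytes and their precursors 2 were listed, and 1 was above the filter. This was S100a8, which activated macrophages also make, at 27.1, 25.5 and 55.4 in the 3 conditions. It was called higher in GFP-TTP-AA than in GFP and in GFP-TTP (Wald test, adjusted p = 0.00299 and 0.000276). The other, Mpo, was at 0.128, 0.123 and 0.123. The cause of the S100a8 difference was not tested.

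Immediate-early genes are transcribed within minutes of a stimulus from factors that are already present in the cell, such as SRF with its ternary complex partners downstream of ERK, CREB and NF-κB, and they need no new protein synthesis. Their mRNAs and proteins are mostly short-lived, and many of the mRNAs carry AU-rich elements in the 3′UTR, the kind of sequence that TTP binds before it recruits the deadenylation machinery. EGR proteins are zinc finger transcription factors with GC-rich binding sites, KLF2 and KLF6 are zinc finger factors of the Krüppel-like family, and MYC drives growth and ribosome production as a dimer with MAX. IER3 is a small protein linked to survival and to ERK signalling, IER2 and IER5 belong to a family of short nuclear regulators, and GADD45B activates stress kinase signalling through MTK1.

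AU-rich motifs were searched on the transcript strand in 1 annotated 3′UTR per gene (GRCm38). The motifs were the pentamer ATTTA, the heptamer TATTTAT, which contains the pentamer, and the nonamer TTATTTATT, which contains both; overlapping matches were all counted. The pentamer was in 8 of the 10 genes, the heptamer in 3 and the nonamer in 0, against 68.0%, 28.6% and 7.39% of the 3′UTRs of 9937 genes above the filter. The sites of Ier3, Klf2 and Egr3 are shown because these are the genes with an AU-rich motif whose footprints differed between conditions below (for Egr3, the pair nearest to the stop codon). Each line is 30 bases of the plus strand on GRCm38 in the 3′UTR, 5′ to 3′, and capitals mark the pentamers.
Ier3, chr17:35822485-35822514: taattaatATTTAtgtATTTAtgtatatcc
Ier3, chr17:35822531-35822560: ggtgtatgtaatATTTAttctaacttatgc
Ier3, chr17:35822591-35822620: cacagatATTTAttacgATTTAtagggtcg
Klf2, chr8:72320988-72321017: aaacagactgctATTTAttggaccttagga
Egr3, chr14:70081097-70081126: ttagacacatatATTTAcataacacacact
Egr3, chr14:70081208-70081237: acagcttaaatgATTTAtttttatgaaaat

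Ier3 stood apart among the 10 in the density of these motifs. Its 3′UTR of 613 nt held 5 pentamers and 4 heptamers, all in the 3 windows above between positions 175 and 310 of the 3′UTR. Among 1221 genes above the filter with a 3′UTR of like length (within a factor of 1.25), 2.46% had as many pentamers and 0.41% as many heptamers. Klf2 had 1 pentamer, which lies in a heptamer, in 737 nt, and 20.5% of 1272 genes of like length had a heptamer. Klf6 had 7 pentamers and 2 heptamers in 3111 nt, and Egr3 had 7 pentamers and no heptamer in 2645 nt. Such numbers were common at these lengths, since 35.2% of 1148 and 27.8% of 1319 genes had as many pentamers. Egr2 held 3 pentamers, and Egr1, Ier5 and Myc held 2 each. Ier2 with 755 nt and Gadd45b with 558 nt held none, while 66.6% of 1313 and 56.0% of 1203 genes of like length held at least 1.

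**Figure D1:**
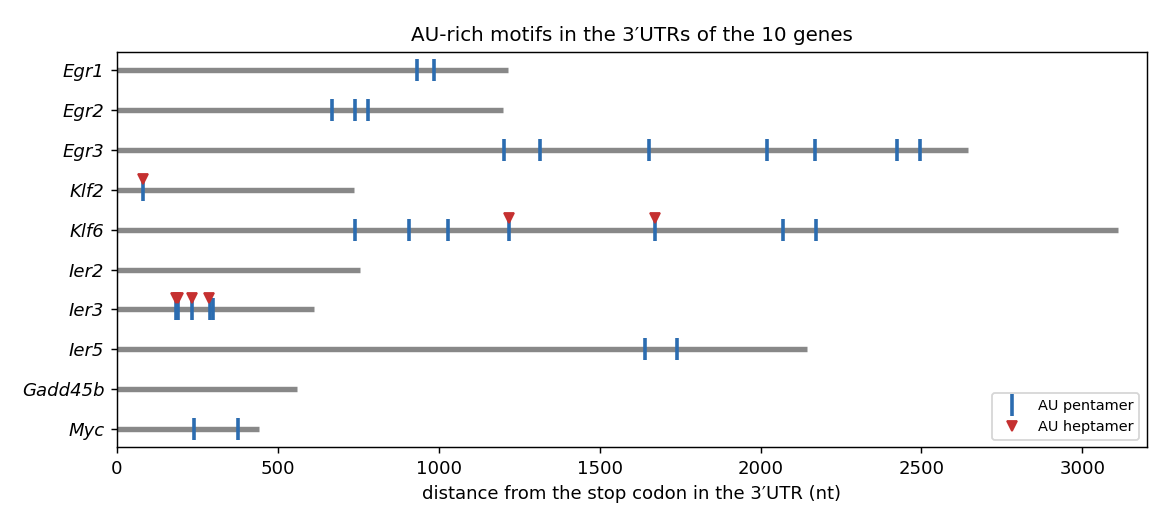
Positions of the pentamer (blue ticks) and the heptamer (red triangles) in the 3′UTR of each gene, as the distance from the stop codon in nt; grey bars are the 3′UTRs. The 4 heptamers of Ier3 lie close together near its stop codon, and Ier2 and Gadd45b have no tick.

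Per length, the 10 genes fell into a high and a low group. Fitted levels per kilobase of coding sequence, over all 3 conditions, were 2302 for Ier3, 2123 for Klf6, 1093 for Gadd45b, 1032 for Myc, 898 for Ier5 and 591 for Ier2. They were 98.5 for Klf2, 63.2 for Egr1, 47.2 for Egr2 and 44.1 for Egr3. Ier3 was thus higher per length than 94.9% of the kept genes with an annotation and Klf6 than 94.4%, while the EGR genes lay at the 29th percentile or below (29.2 for Egr1, 23.1 for Egr2 and 21.7 for Egr3). The 9 libraries covered 1269 to 3538 per kilobase for Ier3 and 1833 to 2330 for Klf6, so that these neighbours in the order overlapped. Ier3 also overlapped with Gadd45b and Myc. In GFP-TTP-AA it was at 1433 per kilobase, below Klf6 (2127) and Gadd45b (1467). Gadd45b (735 to 1707), Myc (806 to 1418), Ier5 (710 to 1083) and Ier2 (249 to 1031) overlapped with each other in the same way. So did Egr1 (43.9 to 84.0), Egr2 (44.5 to 50.0) and Egr3 (28.9 to 67.2). Klf2 (72.7 to 164) overlapped with Egr1, and its highest library stayed below the lowest of Ier2.

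**Figure D2:**
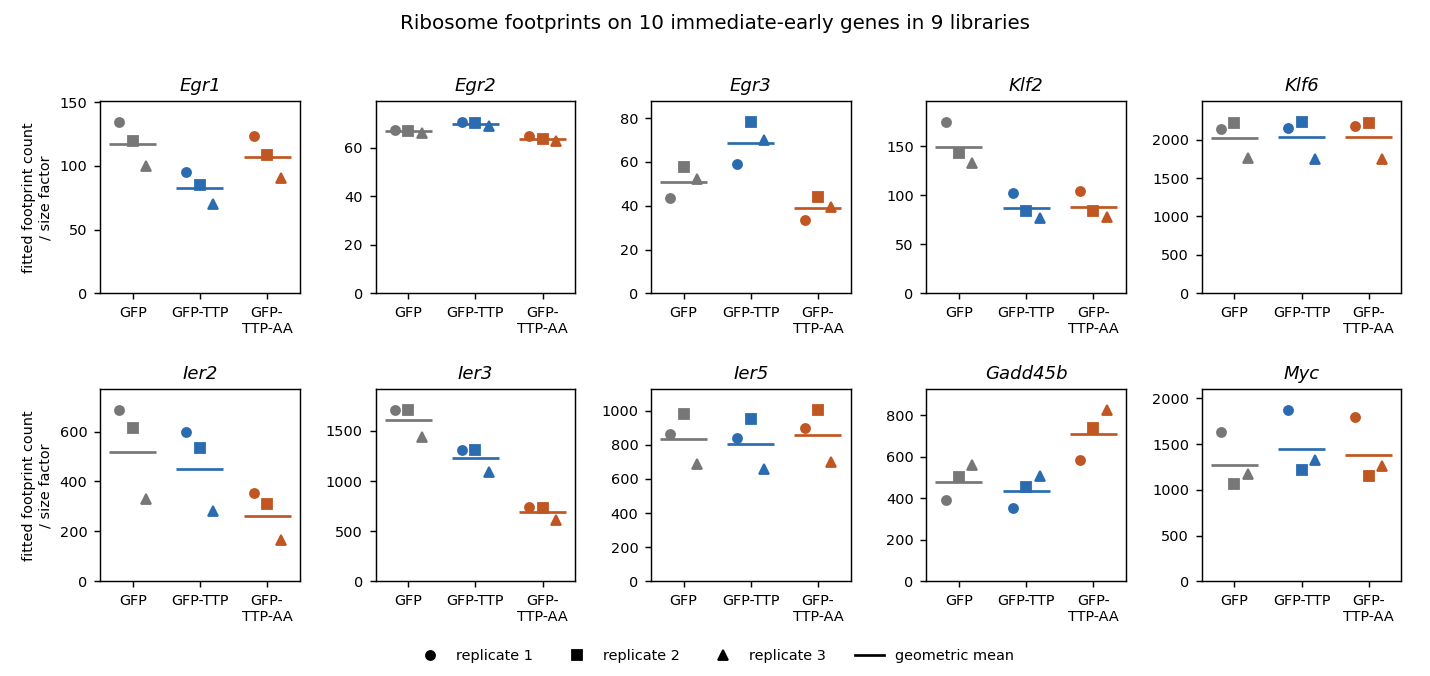
Fitted footprint count divided by the size factor (linear axis from 0) for each gene in each of the 9 libraries; symbols are replicate numbers and bars the geometric mean of a condition. Because the model adds a condition and a replicate term, the replicates have the same pattern in each condition. Ier3 falls from GFP (1612) to GFP-TTP-AA (692), Klf2 is lower in both TTP conditions, and Gadd45b is highest in GFP-TTP-AA.

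The first question was what wild-type TTP changed in TTP-deficient macrophages. In GFP-TTP minus GFP, Klf2 alone of the 10 passed the test, and it fell by 0.77 on the log2 scale. Over all genes, 2.14% of 9938 passed, with 1.38% lower and 0.765% higher in GFP-TTP. The second question was what the mutant changed, and in GFP-TTP-AA minus GFP 3 of the 10 passed, Ier3, Ier2 and Klf2, all lower in the mutant. Over all genes, 3.1% of 10099 passed, with 1.47% lower and 1.63% higher in GFP-TTP-AA. The last comparison set both forms of TTP against each other. In GFP-TTP-AA minus GFP-TTP 4 of the 10 passed, with Ier3, Ier2 and Egr3 lower in the mutant and Gadd45b higher, against 10.3% of 10099 genes overall. There 4.88% of all genes were lower in GFP-TTP-AA and 5.4% higher. The median log2 difference of the 10 genes was -0.10, -0.10 and -0.04 in the 3 comparisons, beside -0.0045, -0.011 and -0.0047 for all genes tested, so that the calls lie in single genes and the middle of the group moved little. The comparisons share libraries, and a low value in GFP-TTP-AA enters 2 of them.

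**Figure D3:**
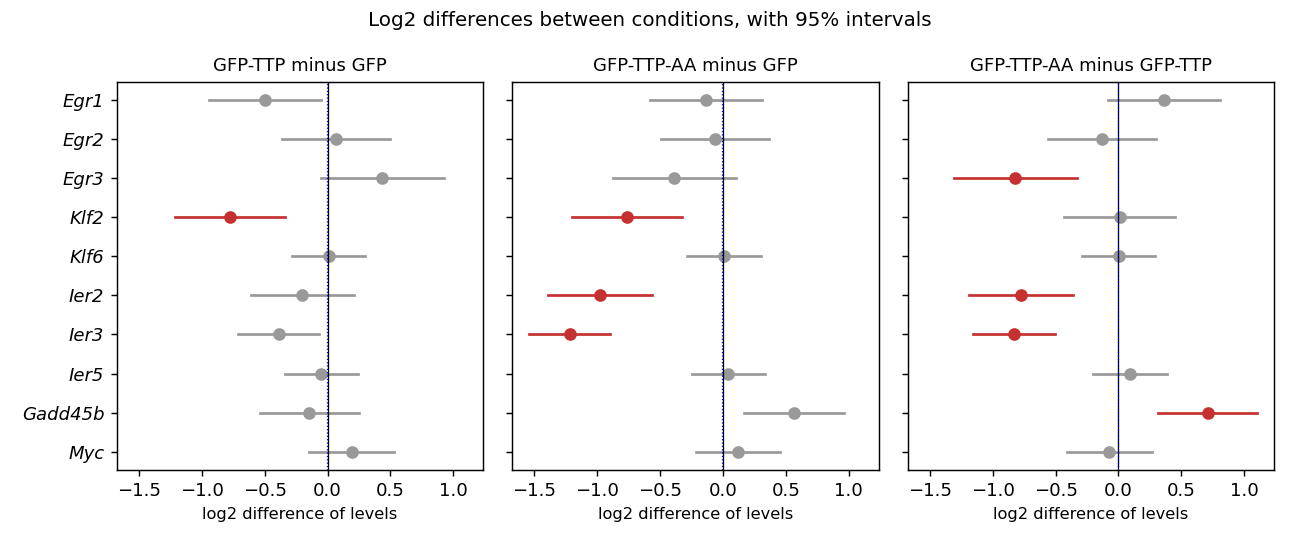
Log2 difference of levels for the 10 genes (points) with 95% intervals (lines) in each comparison; red marks an adjusted p under 0.05 and the dotted line the median of all genes tested. Ier3 lies at -1.22 in GFP-TTP-AA minus GFP, and Klf6 and Ier5 lie near 0 in all 3 panels.

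Ier3, which encodes the survival-linked protein IER3, showed the largest fitted differences of the 10 genes in both comparisons with GFP-TTP-AA. In GFP-TTP-AA minus GFP-TTP, Egr3 lay close to it at -0.82. The model shrinks each gene to a different degree, as given for Egr3 below. At the larger of the 2 shares estimated there for Ier3, Egr3 would have the larger difference before shrinkage in GFP-TTP-AA minus GFP-TTP. The order before shrinkage was not tested. The fitted values of Ier3 after size factors were 1705, 1709 and 1439 in the GFP libraries 1 to 3. They were 1308, 1309 and 1091 in GFP-TTP, and 740.5, 731 and 613 in GFP-TTP-AA. The fitted values of the 3 conditions did not overlap, with GFP highest and GFP-TTP-AA lowest. Such values hold no residual. Overlap here and below thus sets condition terms against replicate terms and shows no spread of observed libraries. GFP-TTP-AA minus GFP was -1.22 ± 0.16 (SE, log2), a 2.33-fold lower level (95% interval -1.54 to -0.90, Wald test, adjusted p = 1.26e-10). Of all genes tested, 0.0792% had a difference as low, Ier3 included. GFP-TTP-AA minus GFP-TTP was -0.83 ± 0.16 (Wald test, adjusted p = 2.84e-05). For the wild type, GFP-TTP minus GFP was -0.39 ± 0.16 with an interval of -0.71 to -0.07, and it missed the threshold (Wald test, adjusted p = 0.277). Ier3 is on chromosome 17 (35821684 to 35822923, plus strand), has 2 exons and a coding sequence of 483 nt, and is the gene with the 4 heptamers.

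Ier2, a single-exon gene on chromosome 8 (84661331 to 84662852, minus strand), also fell with the mutant but had a replicate term as wide as that difference. Its values were 686, 612 and 329 in GFP, 599, 533 and 284 in GFP-TTP, and 352, 310 and 166 in GFP-TTP-AA. In each condition library 3 was lowest, an order that the model sets equal for all conditions. Library 3 of GFP lay below library 1 of GFP-TTP-AA, so that the fitted values of the conditions overlapped. GFP-TTP-AA minus GFP was -0.98 ± 0.21 (SE, log2; interval -1.39 to -0.57), a 1.97-fold lower level (Wald test, adjusted p = 0.000523). GFP-TTP-AA minus GFP-TTP was -0.78 ± 0.21 (Wald test, adjusted p = 0.00485). GFP-TTP minus GFP was -0.20 ± 0.21, and its interval of -0.61 to 0.21 includes a fall as well as a small rise (Wald test, adjusted p = 0.796).

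Ier5, the other IER gene and an activator of heat shock factor signalling, had nearly the same level throughout. It was at 834 in GFP, 806 with GFP-TTP and 859 with the mutant. Its 3 differences lay between -0.05 and 0.09 on the log2 scale with an SE of 0.15, and the intervals spanned -0.34 to 0.38. Ier3 and Ier2 were thus both highest in GFP and lowest in GFP-TTP-AA, while Ier5 was highest in GFP-TTP-AA by a margin within its SE. Differences between the IER genes were not tested.

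Klf2, which in macrophages restrains inflammatory activation, was lower with both forms of TTP and by nearly the same amount. Its values were 175, 144 and 133 in GFP, 103, 84.2 and 77.4 in GFP-TTP, and 104, 84.2 and 77.9 in GFP-TTP-AA. All fitted GFP values lay above all others, and those of the TTP conditions overlapped. GFP-TTP minus GFP was -0.77 ± 0.22 (SE, log2), a 1.71-fold lower level (interval -1.21 to -0.34, Wald test, adjusted p = 0.0276). GFP-TTP-AA minus GFP was -0.76 ± 0.22, a 1.70-fold lower level (Wald test, adjusted p = 0.0263). The difference between both TTP forms was 0.01 ± 0.22 with an interval of -0.43 to 0.45, which leaves room for a change up to these limits in either direction. Klf2 is on chromosome 8 (72319033 to 72321656, plus strand) with 3 exons, and its heptamer lies in the window shown above, 69 to 98 nt into the 3′UTR.

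Klf6, the second Krüppel-like factor and an NF-κB cofactor, was at 2023 in GFP, 2035 with GFP-TTP and 2036 with the mutant. The 3 differences were all within 0.01 of 0 on the log2 scale, with an SE of 0.15, and the intervals reached from -0.29 to 0.30. With 7 pentamers and 2 heptamers Klf6 was the most motif-rich of the 10 3′UTRs after Ier3 by heptamer count, and its footprints did not differ detectably. Klf2 and Klf6 thus differed in profile, Klf2 with a difference of -0.77 in GFP-TTP minus GFP and Klf6 with 0.01; the difference between the 2 genes was not tested.

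Gadd45b, the stress kinase activator, was the one gene of the 10 with a call in the upward direction. Its values were 391, 501 and 562 in GFP, 355, 454 and 505 in GFP-TTP, and 585, 738 and 825 in GFP-TTP-AA. Every fitted value of GFP-TTP-AA was above those of the other conditions, and the latter overlapped. GFP-TTP-AA minus GFP-TTP was 0.71 ± 0.20 (SE, log2), a 1.64-fold higher level (interval 0.31 to 1.10, Wald test, adjusted p = 0.00792). GFP-TTP-AA minus GFP was 0.56 ± 0.20, and it missed the threshold (Wald test, adjusted p = 0.101). The gene lies on chromosome 10 (80930073 to 80932204, plus strand), on which the median of 482 genes was 0.16 in GFP-TTP-AA minus GFP-TTP and that of 476 genes -0.13 in GFP-TTP minus GFP. With the median of its chromosome subtracted the difference was 0.55 and no longer passed (Wald test, adjusted p = 0.0653). GFP-TTP minus GFP was -0.15 ± 0.20 before and -0.02 after that subtraction. On the other chromosomes that hold the 10 genes, the medians were between -0.09 and 0.02.

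The EGR genes had the lowest levels per length of the 10, with SEs between 0.22 and 0.25. Egr3, a paralog that antigen receptors and growth factors induce, had values of 43.4, 57.7 and 52.0 in GFP, 59.0, 78.2 and 69.8 in GFP-TTP, and 33.6, 44.0 and 39.5 in GFP-TTP-AA. All fitted GFP-TTP values were above all others, while those of GFP and GFP-TTP-AA overlapped. GFP-TTP-AA minus GFP-TTP was -0.82 ± 0.25 (SE, log2), a 1.77-fold lower level (interval -1.31 to -0.33, Wald test, adjusted p = 0.0157). The differences from GFP had opposite signs, 0.43 ± 0.25 for GFP-TTP and -0.39 ± 0.25 for GFP-TTP-AA, and neither passed (Wald test, adjusted p = 0.539 and 0.526). The SE of Egr3 in this comparison equalled the largest of any gene to 3 digits (0.250). The model shrinks differences towards 0, and at this SE it is estimated to have kept between 48.3% and 51.7% of the difference of Egr3. For Ier3 the same estimate gives 12.4% or 87.6%, and the SE alone does not tell which. Ier3 had a mean level of 1183 and Egr3 of 53.0. Shrinkage is weaker with more footprints at a like spread, which goes with the larger share for Ier3.

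Egr1, the zinc finger factor that is the usual marker of ERK activity, was at 117 in GFP, 82.9 with GFP-TTP and 107 with the mutant. GFP-TTP minus GFP was -0.50 ± 0.23 (SE, log2; interval -0.94 to -0.06), a value as low as in 2.79% of the genes tested, and it missed the threshold (Wald test, adjusted p = 0.338). GFP-TTP-AA minus GFP was -0.14 ± 0.23, and GFP-TTP-AA minus GFP-TTP was 0.36 ± 0.23 (Wald test, adjusted p = 0.885 and 0.349). Egr2, a paralog with roles in myelination and in myeloid cells, was at 66.7, 69.9 and 63.8, the narrowest range of the EGR genes. Its differences lay between -0.13 and 0.07 with an SE of 0.22 and intervals that reached from -0.56 to 0.49. Egr2 (67535475 to 67542188) shares chromosome 10 with Gadd45b, where the chromosome medians above apply. Of the 28-nt words in the coding sequence, 1.37% of those of Egr2, 2.46% of those of Egr3 and 0% of those of Egr1 also occur, letter for letter, in transcripts of another gene. How many footprints were shared between paralogs was not tested.

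Myc was at 1268 in GFP, 1448 with GFP-TTP and 1377 with the mutant, and none of its differences passed. They were 0.19 ± 0.17 (SE, log2), 0.12 ± 0.17 and -0.07 ± 0.17 for GFP-TTP minus GFP, GFP-TTP-AA minus GFP and GFP-TTP-AA minus GFP-TTP (Wald test, adjusted p = 0.757, 0.857 and 0.860). Every line carries a human MYC transgene, and footprints from it may have been counted on mouse Myc where the sequences are alike, which was not tested. The same holds for Hras, at 411, 386 and 529, for which GFP-TTP-AA minus GFP-TTP was 0.46 ± 0.16 (Wald test, adjusted p = 0.0463) and the other differences did not pass. This call was lost with the chromosome median subtracted (Wald test, adjusted p = 0.0546) and with adjustment over the 3 comparisons together (Wald test, adjusted p = 0.0760).

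The replicate number carried differences as wide as the conditions for part of the genes. In Ier2 the levels by replicate number, averaged over the conditions, were 525, 466 and 249, and library number 3 minus number 1 was -1.08 on the log2 scale. Of the 10099 genes above the filter, 0.129% were as low. The span of Ier2 over the replicate numbers was 1.08 against 0.98 over the conditions. Myc went from 1763 in number 1 to 1143 in number 2, a difference of -0.63, and 0.604% of the genes were as low. Gadd45b had the opposite sign, with 433, 552 and 616. The span over replicate numbers was larger than that over conditions in 4 of the 10 genes, Ier2, Ier5, Klf6 and Myc, and in 53.7% of all genes above the filter. Number 3 was lower than number 1 in 8 of the 10 genes, with a median difference of -0.32, while 49.1% of all genes were lower, with a median of 0.0052. The exceptions were Egr3 and Gadd45b. Since the model takes this term as equal in all conditions, these values say nothing on whether a condition responded differently at one replicate number. The methods name library date as the second term of the model, but the labels give no dates. What the replicate numbers stand for was not given.

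**Figure D4:**
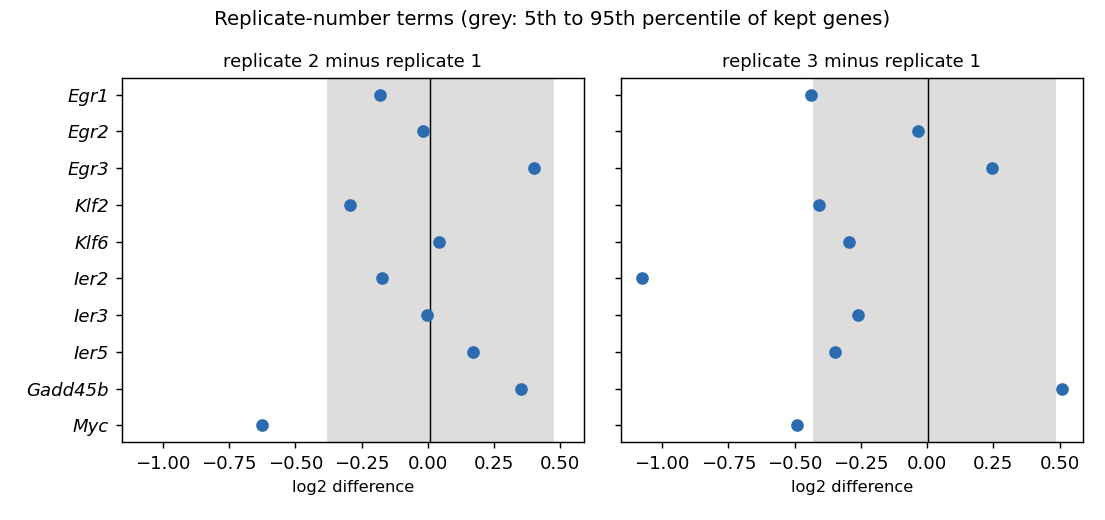
Log2 difference between libraries of different replicate number for each gene (points), averaged over conditions; the grey band spans the 5th to the 95th percentile of the genes above the filter and the black line is their median. Ier2, at -1.08 for number 3 minus number 1, and Myc, at -0.63 for number 2 minus number 1, lie outside the band.

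Other genes of the same pathways were listed for comparison. Of 32 further immediate-early genes 27 were above the filter. In GFP-TTP minus GFP, 1 was called higher and 1 lower, beside 2.14% of all genes called in either direction, and the median was -0.14. The gene that was higher was Fosl1, an AP-1 subunit, which rose from 183 to 318 (0.80 ± 0.17 (SE, log2), Wald test, adjusted p = 0.000724). The gene that was lower was Ppp1r15a, which recruits a phosphatase to eIF2α, from 151 to 93.2 (-0.69 ± 0.21, Wald test, adjusted p = 0.0472), a call that was lost with the chromosome median subtracted (Wald test, adjusted p = 0.0538). In GFP-TTP-AA minus GFP, where 3.1% of all genes were called, again 1 was called higher, Fosl1 at 342 (0.90 ± 0.17, Wald test, adjusted p = 5.07e-05). The gene called lower was Gadd45g, a paralog of Gadd45b, from 91.2 to 50.2 (-0.86 ± 0.23, Wald test, adjusted p = 0.0105). The list median was -0.23 there, beside -0.011 for all genes tested, and in GFP-TTP-AA minus GFP-TTP the Wald test called 0, with 6 at an unadjusted p under 0.05 and a median of 0.09. In GFP-TTP-AA minus GFP, Gadd45g was thus called lower while Gadd45b had a difference of 0.56 that did not pass.

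Of 22 genes for SRF, its ternary complex partners and the ERK pathway upstream of them, all 22 were tested. In GFP-TTP minus GFP the Wald test called 0, with 5 at an unadjusted p under 0.05, beside 2.14% of all genes called. In GFP-TTP-AA minus GFP, beside 3.1% of all genes called, 1 was called lower. This was Dusp6, the phosphatase that inactivates ERK and is itself an ERK target, from 571 to 218 (-1.39 ± 0.21 (SE, log2), Wald test, adjusted p = 1.20e-08). It was also lower in GFP-TTP-AA than in GFP-TTP, at 406 (-0.90 ± 0.21, Wald test, adjusted p = 0.000589), where Hras was higher as given above. These were 2 calls among 22 genes, beside 10.3% of all genes called, so that the list did not exceed that share. Dusp6 lies on chromosome 10 as well, whose median was 0.02 in GFP-TTP-AA minus GFP and 0.16 in GFP-TTP-AA minus GFP-TTP. Both of these Dusp6 calls stayed with the chromosome median subtracted. Srf itself was at 129, 149 and 144 in GFP, GFP-TTP and GFP-TTP-AA, and no comparison passed. Over all genes, the Wald test called 2.14%, 3.1% and 10.3% in the 3 comparisons. Among 12 partners and repressors of EGR and MYC proteins, it called 0, 0 and 1, with 3, 0 and 2 at an unadjusted p under 0.05. The call was Mxd4, a MAX partner that opposes MYC, with 91.4 with GFP-TTP and 139 with the mutant (0.60 ± 0.21, Wald test, adjusted p = 0.0463), and it was lost with adjustment over the 3 comparisons together (Wald test, adjusted p = 0.0761). Of 12 other KLF genes, which include Klf4 and Klf10 of the immediate-early list, 9 were tested. The Wald test called 0 of them in each comparison, beside the same shares of all genes, with 0, 2 and 2 at an unadjusted p under 0.05. The median of these KLF genes was 0.20 in GFP-TTP-AA minus GFP and 0.22 in GFP-TTP-AA minus GFP-TTP.

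Myc was not called in any comparison. Of 20 MYC target genes, all tested, 2 were called higher and 0 lower in GFP-TTP minus GFP, beside 2.14% of all genes called, with a median of 0.22. They were Ncl, the nucleolar protein nucleolin, from 14193 to 21578 (0.60 ± 0.12 (SE, log2), Wald test, adjusted p = 8.56e-05), and Nolc1, another nucleolar protein, from 1778 to 2519 (0.50 ± 0.13, Wald test, adjusted p = 0.00786). Nolc1 was lost with the chromosome median subtracted (Wald test, adjusted p = 0.237). In GFP-TTP-AA minus GFP-TTP, 4 were called lower and 1 higher, beside 10.3% of all genes called, with a median of -0.12. Ncl (-0.66), Cad, an enzyme of pyrimidine synthesis (-0.60), Npm1, a nucleolar chaperone (-0.59), and Hspd1, the mitochondrial chaperonin (-0.49), were lower, and Cdk4 (0.46), on chromosome 10, was higher, a call that was lost with the chromosome median subtracted (Wald test, adjusted p = 0.140). In GFP-TTP-AA minus GFP, beside 3.1% of all genes called, 1 was called higher, Odc1, the first enzyme of polyamine synthesis, from 791 to 1144 (0.53 ± 0.14, Wald test, adjusted p = 0.0117). It was lost with the chromosome median subtracted (Wald test, adjusted p = 0.0821).

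**Figure D5:**
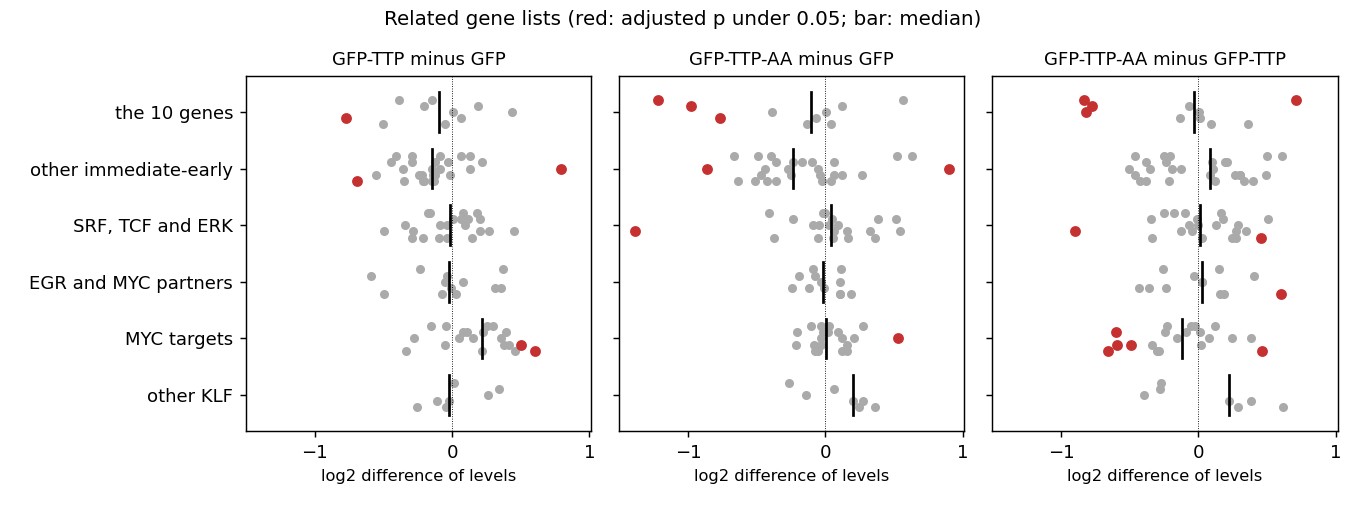
Log2 differences of the 10 genes and of 5 related lists in the 3 comparisons. Each point is a gene tested, red marks an adjusted p under 0.05 and the bar is the median of the points. Klf4 and Klf10 are drawn only among the other immediate-early genes, so that the row of other KLF genes lacks them. The medians of the lists lie between -0.23 and 0.22, and Dusp6 is the red point at -1.39.

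Footprints on a gene count its mRNA and the ribosomes on it together, so that less mRNA and fewer ribosomes per mRNA cannot be told apart in these values. In the same way, fewer cells that make an mRNA and less of it per cell cannot be told apart in bulk lysates.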

How the data were processed

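RiboSeq libraries of 3 conditions with 3 libraries each were used. The authors isolated footprints with the ARTseq kit, removed rRNA and sequenced single reads of 50 bases. Per the labels, the authors used Trim Galore, TopHat2 (2.0.12), HTSeq and DESeq2 (1.6.3) on mm10, and the methods allow up to 2 alignments per read. The authors' deposited table named normalized counts holds a signal, the values that their DESeq2 model fitted with terms for library date and condition (16932 lines, 16921 genes). The deposited comparison tables hold, as log2 values, standard errors (largest 0.250) and, as a signal, the authors' mean normalized count, both of which were used. Their fold changes, statistics and p-values were not used.

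Size factors were taken from the median ratio of libraries over 3632 genes with a fitted mean of at most 0.5, whose condition and date terms are shrunken to almost nothing, with the authors' mean for the scale. Between replicate numbers they are less certain than within one. Genes with a mean level of at least 10 and an SE were tested by a Wald test: the log2 difference of condition levels over the deposited SE, with a two-sided normal p and Benjamini-Hochberg adjustment over all genes of the comparison, threshold 0.05. The scripts (Python 3.11.15, pandas 2.3.3, scipy 1.17.1) were tested on simulated data. Reads per library were not used, so that depth enters through the SE. The part of a difference kept by shrinkage was estimated from the ratio of the SE to its largest value, which gives 2 solutions. Coordinates and 3′UTRs are from GENCODE on GRCm38, with 1 transcript per gene, chosen first by having a 3′UTR and then by its rank among the gene's isoforms. Words of 28 nt were compared on the sense strand with all other genes' transcripts.

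The 10 genes, the lists and the tests were chosen with earlier results of these data known. Named genes were all 10, Zfp36, Hras, and from each list those past the threshold (at most 6 per comparison). Alternatives were the filter (none or 50), a pseudocount of 10, centring on the median of all genes or of the chromosome, joint adjustment, arithmetic means and centred replicate terms.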

Additional observations from a re-analysis of the deposited data

How the results depend on the processing

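The count of called genes among the 10 was the same under every alternative that allows a test in GFP-TTP minus GFP (1) and GFP-TTP-AA minus GFP (3). In GFP-TTP-AA minus GFP-TTP it was 4, and 3 with the chromosome medians subtracted, where Gadd45b (0.55) was lost. Of 150 retested differences of the 10 genes, 149 stayed on their side of the threshold. No called gene changed sign in these or in the 30 values with a pseudocount, and 3 values that were not called changed sign near 0. The alternatives for the lists were chosen after seeing the data. With chromosome medians subtracted, calls fell from 2 to 1 for the other immediate-early genes (Ppp1r15a lost) and for MYC targets (Nolc1) in GFP-TTP minus GFP, and from 1 to 0 for MYC targets (Odc1) in GFP-TTP-AA minus GFP. In GFP-TTP-AA minus GFP-TTP they fell from 2 to 1 for the SRF and ERK list (Hras) and from 5 to 4 for MYC targets (Cdk4). With adjustment over the 3 comparisons together, MYC targets in GFP-TTP minus GFP went from 2 to 4 (Npm1 and Hspd1 gained), the SRF and ERK list in GFP-TTP-AA minus GFP-TTP from 2 to 1 (Hras), and the partners of EGR and MYC from 1 to 0 (Mxd4). Zfp36 was lost there as well. The cause was not tested. With arithmetic means 4 genes were still lowest in GFP-TTP-AA, and with centred replicate terms 8 were still lower in number 3 than in number 1. No paired analysis was possible because the deposited values are fitted with a date term already in the model and leave no residual, and for the same reason no library could be left out and the term could not be dropped.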
